A study of Trichoderma reesei with 12 samples.

Results

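The filamentous fungus Trichoderma reesei was compared with and without rgs4 in constant darkness, with 6 of the 12 RNA-seq libraries of the series. The deletion group, Δrgs4 DD, holds 3 shake-flask cultures of 1 deletion strain, made in the wild-type QM6a by replacing rgs4 with a hygromycin resistance cassette (DD, constant darkness). The other group, wild-type DD, holds 3 cultures of QM6a. All 6 were grown on cellulose in liquid minimal medium, for 96 h at 28 °C. The paper's methods state that the strain carries more than a single copy of the cassette. They also report crosses made for this reason, in which the growth defect on glucose went with the deletion. No progeny of these crosses is among the libraries. Differences between the strains therefore cannot be told apart from an effect of a further insertion in these libraries. The other 6 libraries (both strains in constant light, LL) entered the estimate of the spread of each gene and are named below only beside a result of darkness.

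Regulators of G-protein signaling (RGS) act on heterotrimeric G-proteins. Once a receptor has been activated, the Gα subunit binds GTP and passes the signal on until it hydrolyses the GTP. RGS proteins speed up this hydrolysis and so end the signal. In fungi these pathways transmit signals on nutrients, light and stress, and in T. reesei, an industrial producer of plant cell wall degrading enzymes, they bear on growth on cellulose.

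Values are given as normalized counts, the reads of a gene divided by the size factor of its library. Log2 fold changes are those of Δrgs4 over wild-type on the scale of log2(normalized counts + 2), which understates the change of genes with few reads. A gene was called at |log2 fold change| > 0.58 and an adjusted p < 0.05. All adjusted p are from limma with Benjamini-Hochberg adjustment over the 8895 genes with enough reads. The 3 Δrgs4 DD libraries held 15.34, 12.09 and 14.68 M reads on genes, against 14.35, 13.05 and 13.83 M in the wild-type DD libraries (M, mega), with at least 1 read for between 9772 and 9866 genes. The labels do not say more of the replicates than that they are separate samples. The paper's methods call them biological triplicates, grown in shake flasks, and p-values measure the spread between these cultures.

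The deleted gene was checked first. rgs4 (TrG0496W) had 5, 0 and 0 reads in the Δrgs4 DD libraries, against 1710, 1588 and 1627 in wild-type DD, and so both groups fit their labels. With 3 against 3 libraries an exact permutation test (two-sided) cannot go below p = 0.1, and gave this value.

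One library lay apart. Δrgs4 DD replicate 3 had a correlation of 0.965 and 0.972 with replicates 1 and 2 of its own strain over the log2 values of the tested genes, and between 0.976 and 0.983 with the wild-type DD libraries. Replicates 1 and 2 had a correlation of 0.993 with each other. The first principal component of the 6 libraries, with 51.2% of the variance, had replicate 3 at one end and replicates 1 and 2 at the other, with the wild-type between them. The second component, with 22.0%, had all 3 Δrgs4 libraries on one side of 0 and all 3 wild-type libraries on the other. These are descriptions over genes, which are not independent. Calls without replicate 3 are therefore given beside those with all libraries.

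**Figure D1:**
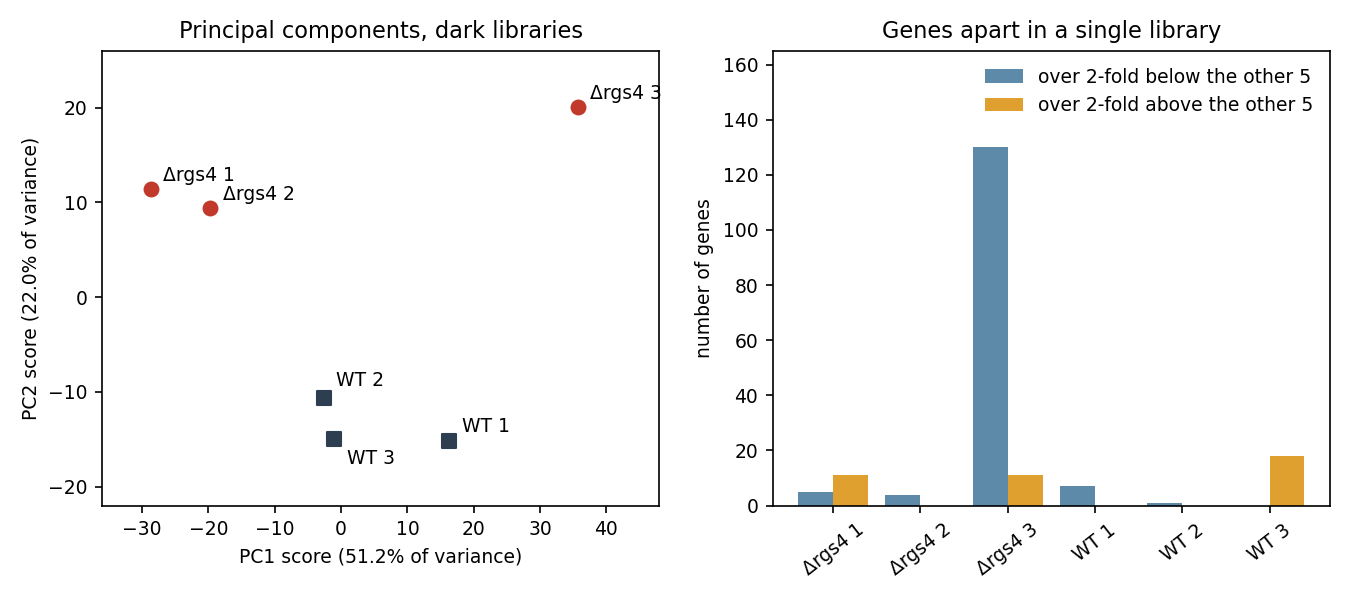
Left, scores of the 6 dark libraries on the first 2 principal components of the log2 values of 8895 genes (circles, Δrgs4; squares, wild-type). Right, number of genes that were over 2-fold below or above all 5 other dark libraries. Genes considered were the 8253 with a mean of at least 20 normalized counts. Δrgs4 replicate 3 has 130 genes below, and no other library has more than 7 below. On the upper side wild-type replicate 3 has 18, and Δrgs4 replicates 1 and 3 have 11 each.

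With all libraries, the deletion had 8 genes with a called decrease in darkness (0.0899% of the genes tested) and 0 with a called increase (0%). An unadjusted p under 0.05 was reached by 511 lower and 588 higher genes. On the recovered reads limma-voom gave 30 decreases, among them the same 8 genes, and 9 increases (0.438% of the genes in both directions). Besides rgs4, the 7 called genes were lower by 1.5- to 5.04-fold. By annotation, 4 of them are a small secreted protein, an amino acid permease, a peptidase and a β-glucosidase. The other 3 have no annotation in the sources used here. Of these 7 all but TrG1079W are also on the authors' list for darkness, which was made from these libraries.

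The decrease with the highest fold among these 7 was that of TrE0072W, which is annotated as a small secreted cysteine-rich protein, a class of short proteins that fungi release and that are held together by disulfide bridges. It had 644, 835 and 1404 normalized counts in Δrgs4 DD, against 4488, 3911 and 5548 in wild-type DD. No Δrgs4 library reached the wild-type range, and replicate 3 came nearest to it. The log2 fold change was -2.33 with a standard error of 0.37 (adjusted p = 0.047, limma).

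TrB1799C, annotated as an amino acid permease of the Dip5 type, which carries acidic amino acids into the cell in yeast, had 390.0, 403 and 625 normalized counts in Δrgs4 DD, against 1410.0, 1206 and 1964 in wild-type DD. Every Δrgs4 library had less than any wild-type library. The log2 fold change was -1.69 with a standard error of 0.20 (adjusted p = 0.0161, limma), and of the called genes besides rgs4 this one had the lowest p.

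TrB0248C, annotated as a carboxypeptidase A, an enzyme that removes amino acids from the carboxy end of proteins, had 549.5, 630.0 and 830.2 normalized counts in Δrgs4 DD, against 1261, 1139.8 and 1161 in wild-type DD. Its log2 fold change was -0.84 (standard error 0.12). The β-glucosidase gene bgl3i (TrA0299W), of an enzyme family that splits cellobiose and similar sugars, had 419.8, 498 and 540.3 normalized counts in Δrgs4 DD, against 919.8, 807 and 756 in wild-type DD. Both strains stayed apart in each of these genes, and replicate 3 was again the Δrgs4 library nearest to the wild-type. The log2 fold change of bgl3i was -0.77 (standard error 0.12), and limma gave both genes an adjusted p of 0.047.

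Of the called genes without annotation, TrG0111W had 98.0, 101 and 171 normalized counts in Δrgs4 DD, against 351, 264 and 281 in wild-type DD. TrA1397W had 362, 413 and 538 in Δrgs4 DD, against 885, 759.9 and 737 in wild-type DD. TrG1079W had 1607, 1666 and 1899.7 in Δrgs4 DD, against 2591, 2358 and 2810.1 in wild-type DD. In none of the 3 did the strains overlap, with log2 fold changes of -1.30, -0.87 and -0.58 (adjusted p of 0.047 each in limma).

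These calls depended on single libraries. All 8 were kept without Δrgs4 DD replicate 3. Without any 1 of the other 5 dark libraries only rgs4 was called, and, without wild-type DD replicate 2, TrB1799C. Leaving out 1 LL library, which bears only on the spread, gave 9 decreases without Δrgs4 LL replicate 1 and 1 to 3 without another. The 7 calls other than rgs4 were also lost when only the 6 dark libraries were fitted. Their log2 fold changes stayed negative in each of these fits, with adjusted p of up to 0.265 (limma) when 1 library was left out.

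A further 4 genes had an adjusted p under 0.05 (0.135% of the tested genes with the 8 above) but a change too small to be called. They are TrA0072C (log2 fold change -0.51, adjusted p = 0.0469 in limma), TrC0168W (0.54, 0.0469), TrC0395W (0.54, 0.0301) and TrG0492C (0.57, 0.047). TrC0168W had 2248, 2162 and 2020.3 normalized counts in Δrgs4 DD, against 1532, 1431 and 1461 in wild-type DD. TrC0395W had 1209, 1177 and 1351 in Δrgs4 DD, against 803, 861 and 895 in wild-type DD. In both, replicate 3 lay with the other Δrgs4 libraries and above every wild-type library, with increases in the mean of 1.45- and 1.46-fold.

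**Figure D2:**
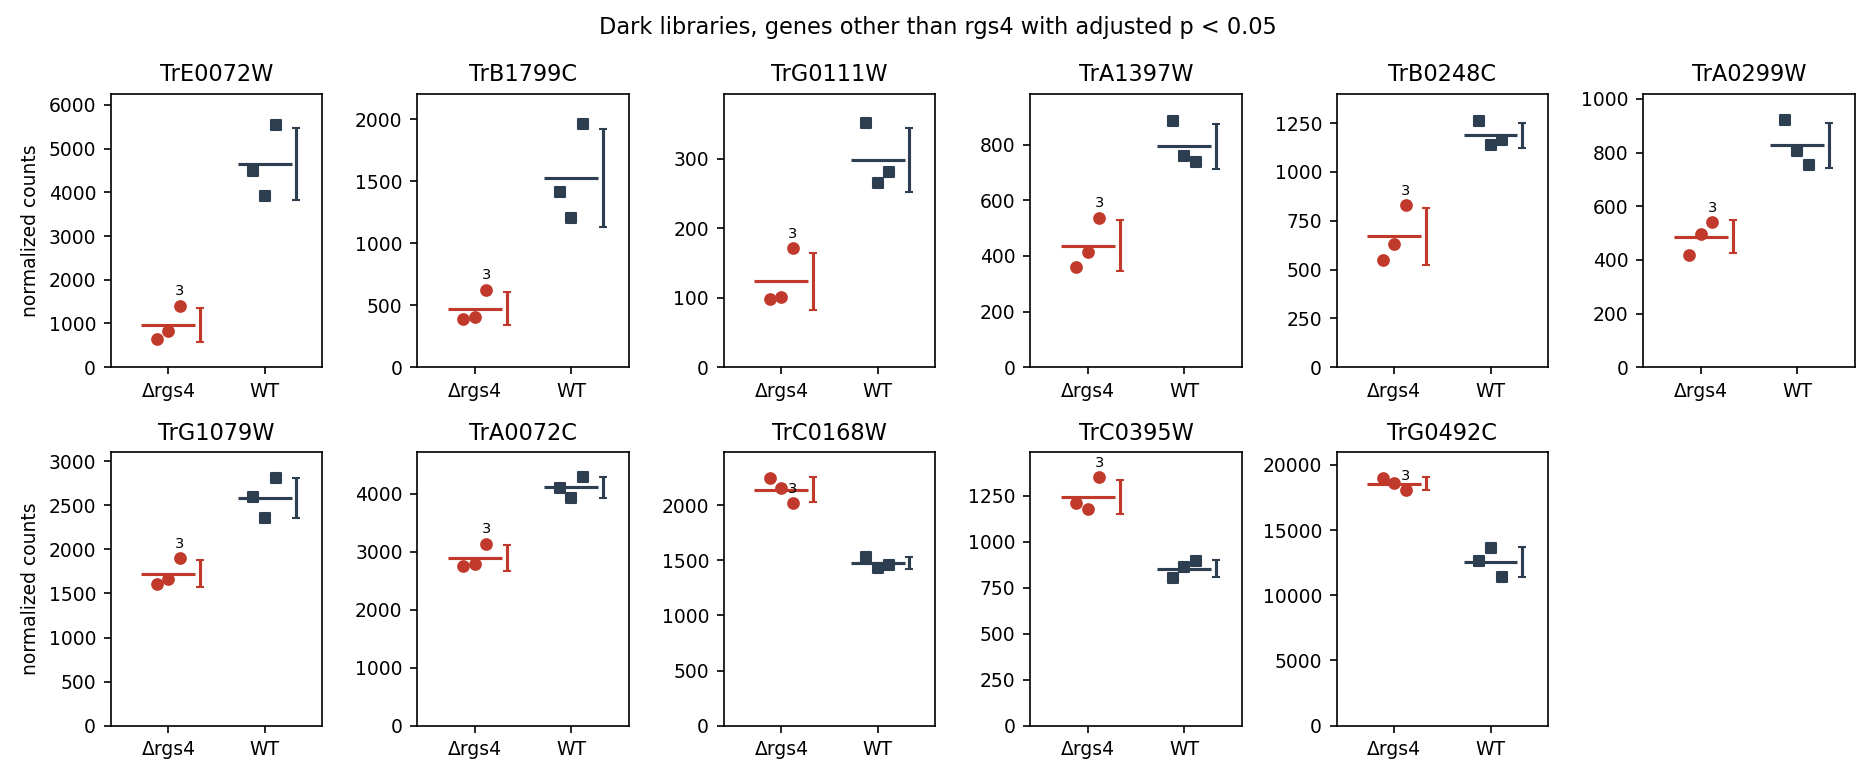
Normalized counts of the 11 genes other than rgs4 with an adjusted p under 0.05 (limma, Benjamini-Hochberg), in the 3 Δrgs4 (red circles, "3" marks replicate 3) and 3 wild-type (dark squares) dark libraries; horizontal lines are means and bars SD. In every panel the libraries of the strains do not overlap, and in the 8 panels of genes lower in Δrgs4 replicate 3 is the Δrgs4 library nearest to the wild-type.

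The groups of dark libraries did not overlap for 657 tested genes with lower values in Δrgs4 (7.39%) and for 814 with higher values (9.15%). In each direction the genes with at least 50 normalized counts were ordered by unadjusted p. Below the genes above, the lower side continued with TrC1101C (613, 672 and 689 normalized counts in Δrgs4 DD, against 891, 862 and 893 in wild-type DD). The higher side continued with 7 genes. TrB1934C and TrE0246W are annotated as glutathione S-transferases, and TrC0132C as a permease for γ-aminobutyric acid and related amino acids. TrB0981C, TrB1137C, TrD0929C and TrE0532W have no annotation in the sources used here and were higher by 1.27- to 1.44-fold. None of these 8 genes passed the test, with adjusted p between 0.051 and 0.0839 (limma). Without replicate 3, TrB1934C, TrE0246W, TrC0132C and TrB1137C were called.

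In the chromosomal surroundings of rgs4, 0 of the 6 genes numbered next to it (3 on each side) were called with all libraries. TrG0495C, numbered just before rgs4, had 456, 302 and 137 normalized counts in Δrgs4 DD, against 44.5, 111 and 134 in wild-type DD. The strains did not overlap, but replicate 3 lay next to the highest wild-type library. Its log2 fold change was 1.59 with a standard error of 0.45 (adjusted p = 0.185, limma), and without replicate 3 it was 2.06 with an adjusted p of 0.022, the highest of all genes called as up-regulated in that fit with at least 50 normalized counts.

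TrG0494W, annotated as a homoserine dehydrogenase, an enzyme on the way to threonine and methionine, had 1034, 1006 and 1219.5 normalized counts in Δrgs4 DD, against 1508, 1551 and 1617 in wild-type DD (log2 fold change -0.52, adjusted p = 0.0839 in limma). It was called without replicate 3 (-0.61, adjusted p = 0.0101). In LL its log2 fold change was -0.66 (adjusted p = 0.00484, limma), and it was called there. TrG0497W, the next gene after rgs4, had 1068, 1193 and 1197 normalized counts in Δrgs4 DD, against 1339, 1233 and 1213 in wild-type DD (log2 fold change -0.13, adjusted p = 0.486 in limma). TrG0493C, TrG0498C and TrG0499W overlapped between the strains, and TrG0499W had at most 23.4 normalized counts in a dark library.

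Farther off, and chosen after their values were seen, TrG0490C (64.4, 57.4 and 66.3 normalized counts in Δrgs4 DD, against 100.3, 101 and 107 in wild-type DD) and TrG0491C (17.3, 18.7 and 14.7 in Δrgs4 DD, against 23.7, 26.8 and 26.2 in wild-type DD) were apart between the strains, as was TrG0492C, with 19027, 18609 and 18071 in Δrgs4 DD, against 12608, 13649 and 11371 in wild-type DD. Without replicate 3, TrG0490C and TrG0492C were called. In LL these genes were not called (log2 fold changes of -0.11 and 0.17). TrG0491C was called there (-0.84, adjusted p = 0.0442 in limma), with at most 22.8 normalized counts in an LL library. Among the 6 nearest genes, 2 had lower values and 1 had higher values in every Δrgs4 DD library than in any wild-type DD library, beside 7.39% and 9.15% of all tested genes. A further insertion of the cassette, the deletion itself and its flanks cannot be told apart here.

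Many more genes were called once replicate 3 was left out. In that fit decreases were called for 130 genes (1.46% of those tested) and increases for 155 (1.74%). Since replicate 3 took no part in these calls, its own level could be set beside them, for the 129 lower genes other than rgs4 and for the 155 higher genes. The wild-type libraries are shared by both views, so that genes called as lower were chosen in part for high and those called as higher in part for low wild-type values. The shares over all tested genes given beside them are therefore no values for genes without a change.

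Of the 129 genes, it was below the wild-type mean in 115 (89.1%, against 47.4% of all tested genes) and below every wild-type library in 89 (69.0%, against 28.0% of all tested genes). Of the 155 higher genes, it was above the wild-type mean in 67 (43.2%, against 52.6% of all tested genes) and above every wild-type library in 43 (27.7%, against 31.1% of all tested genes), while it was below every wild-type library in 62 (40%, against 28.0%). The median log2 difference of replicate 3 from the wild-type mean was -0.26 for the lower genes, where replicates 1 and 2 gave a median log2 fold change of -0.75. It was -0.08 for the higher genes, where replicates 1 and 2 gave 0.83. Single genes departed from these medians in both directions.

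**Figure D3:**
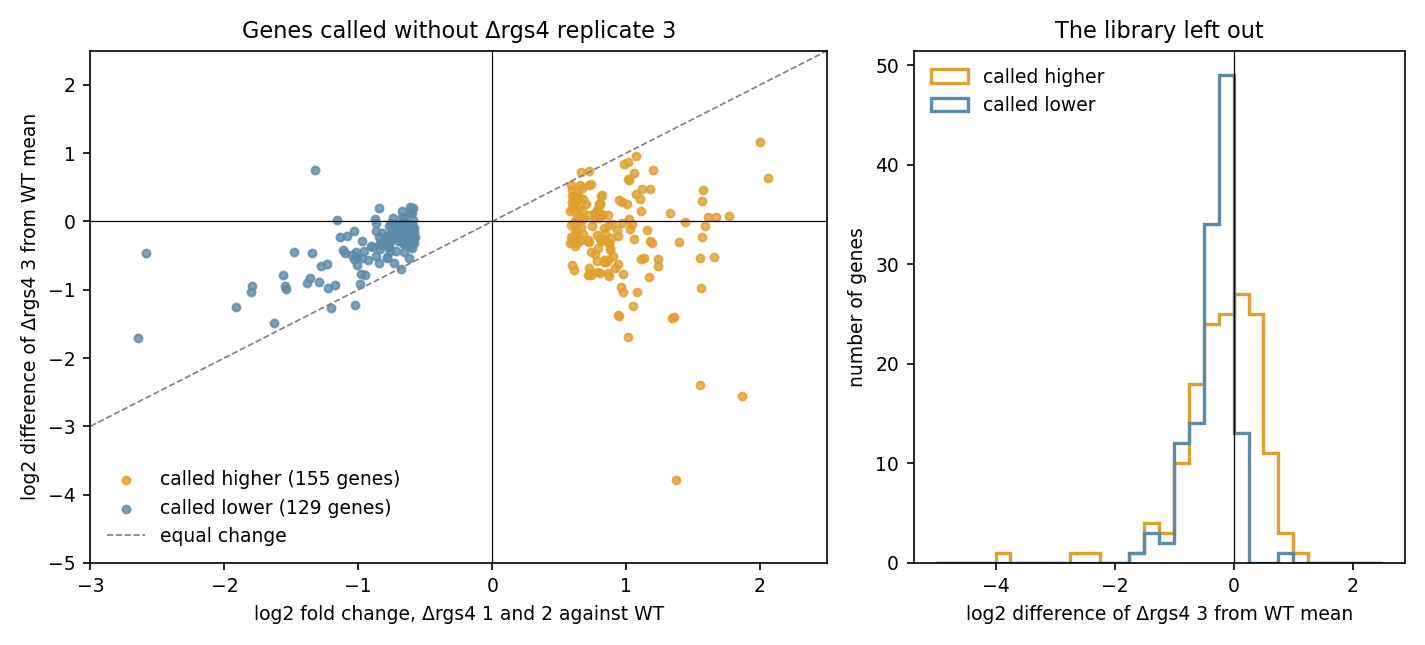
Left, genes called without Δrgs4 replicate 3, with their log2 fold change from replicates 1 and 2 against the wild-type (x axis) and the log2 difference of replicate 3 from the wild-type mean (y axis); the dashed line marks equal change. Right, distribution of the y values; the median is -0.26 for the 129 lower genes and -0.08 for the 155 higher genes.

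Among the genes with at least 50 normalized counts on average, those with the highest folds in these calls include the following. On the lower side TrE1278W, without annotation, had 272, 472 and 610.2 normalized counts in Δrgs4 DD, against 1384, 1106 and 1286 in wild-type DD. TrC0019C, annotated as an aspartyl-tRNA synthetase, which charges a tRNA with aspartate, had 25, 42.2 and 35.9 in Δrgs4 DD, against 80.4, 81.3 and 175 in wild-type DD. Replicate 3 lay below the wild-type in both genes, as it did in TrE0072W and TrB1799C. On the higher side TrD0311W had 269, 85.5 and 48.8 in Δrgs4 DD, against 40.7, 45 and 54.3 in wild-type DD. TrB0193W had 117, 112 and 23.9 in Δrgs4 DD, against 26.5, 64.2 and 25.2 in wild-type DD. Replicate 3 lay within the wild-type range for TrD0311W and below it for TrB0193W, and with all libraries limma gave an adjusted p of 0.355 and 0.522.

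The annotated genes below were grouped by function. These lists hold genes that the paper names or that the authors list as differentially regulated in darkness or in light, and they are not the whole class of their name. Genes listed for darkness were chosen on these libraries, so that their direction and the medians of their lists are descriptions only. Over all tested genes the median log2 fold change was 0.01, the libraries did not overlap for 7.39% on the lower and 9.15% on the higher side, and 1.46% and 1.74% were called as lower and higher without replicate 3.

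Of 6 small secreted cysteine-rich proteins, 4 listed for darkness and 2 for light, TrE0072W was called (all tested genes, 0.0899%). The log2 fold changes of the 6 were negative, with a median of -1.05, and 4 did not overlap between the strains. TrE1081C had 95.1, 118 and 156 normalized counts in Δrgs4 DD, against 395, 317 and 243 in wild-type DD. TrF0181C had 36.5, 52.7 and 64.4 in Δrgs4 DD, against 129.6, 101 and 119 in wild-type DD. In each of these, replicate 3 had the highest value of the strain and still lay below the wild-type. Without replicate 3 TrE0072W, TrE1081C and TrF0181C were called, and the median of the list was -1.24.

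Of 5 genes grouped as other secreted proteins, all had negative log2 fold changes (median -0.80), none passed the test and 4 did not overlap. TrC1171C, a secreted protein of unknown function, had 295, 313 and 266 normalized counts in Δrgs4 DD, against 717, 610.1 and 547 in wild-type DD. The orphan secreted protein TrF0745W had 299.7, 389 and 440.0 in Δrgs4 DD, against 678, 619 and 656 in wild-type DD. Both were apart between the strains by more than their spread and were called without replicate 3. For TrC1171C, replicate 3 had the lowest value of the strain. The authors list 3 of these 5 genes for darkness. TrC0885C, also among the 5, is named in the paper as a muconate cycloisomerase gene. It is counted again below among the genes mutated in RutC30 or QM9123.

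The 7 genes of amino acid and peptide transport had a median of -0.03, and TrB1799C was called. The oligopeptide transporter TrA0967C had 1797, 1826 and 2773 normalized counts in Δrgs4 DD, against 3824, 3265 and 4207 in wild-type DD (log2 fold change -0.84, adjusted p = 0.269 in limma) and was not called without replicate 3 either. The amino acid permease TrC0132C had 152, 135 and 111 in Δrgs4 DD, against 53.9, 80.3 and 71.4 in wild-type DD (0.94, adjusted p = 0.0839), and it was called without replicate 3. Hence the values of these permeases lay on opposite sides of the wild-type, with no overlap in either.

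The 9 MFS and ABC transporters, which move sugars, drugs and other small molecules across membranes, had 6 positive and 3 negative log2 fold changes, none called. Without replicate 3, 3 were called in each direction (all tested genes, 1.46% lower and 1.74% higher). The authors list 6 of the 9 for darkness, chosen on these libraries, and 3 for light. Higher values were found for the MFS permease TrC1540W, with 235, 182 and 189.6 normalized counts in Δrgs4 DD, against 129.6, 94.2 and 74.5 in wild-type DD. The ABC transporter TrA0451W had 893, 932 and 948 in Δrgs4 DD, against 520.5, 540.5 and 679 in wild-type DD. In both genes replicate 3 stood with its strain. In contrast, the drug efflux type transporter TrE0949C had 5449, 5933 and 8146 in Δrgs4 DD, against 10818, 10384 and 10394 in wild-type DD, and replicate 3 lay between. The median of the list was 0.57, and replicate 3 alone had a median difference of -0.24 from the wild-type mean. Both are values of a single member, a gene of the siderophore cluster. It had 7, 6 and 2 reads in Δrgs4 DD, against 1, 3 and 4 in wild-type DD, so that neither median describes a shift of the list.

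Glutathione S-transferases join glutathione to toxic or oxidised compounds. The 3 genes of this kind on the authors' list for darkness had higher values without overlap, with a median log2 fold change of 0.85. Since they were chosen on these libraries, this is a description only. TrB1934C had 299.7, 214 and 185 normalized counts in Δrgs4 DD, against 101, 107 and 121 in wild-type DD, and limma gave an adjusted p of 0.083. For TrE0246W the values were 1082, 883 and 727 in Δrgs4 DD, against 514, 579 and 570.5 in wild-type DD. For TrF1200C they were 233, 200.2 and 135 in Δrgs4 DD, against 89.9, 122 and 95.6 in wild-type DD. Replicate 3 had the lowest value of the strain in each. None was called with all libraries and all 3 were without replicate 3.

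The authors list 2 chloroperoxidases for darkness, enzymes that use hydrogen peroxide to oxidise or halogenate their substrates, and neither was called with all libraries. TrE0168W had 31309, 26274 and 13207 normalized counts in Δrgs4 DD, against 9793, 10137 and 8999.8 in wild-type DD. TrE0148W had 1131, 1282 and 1877 in Δrgs4 DD, against 2677, 2407 and 2686 in wild-type DD. In either gene replicate 3 was nearest to the wild-type without overlap. The log2 fold changes were 1.20 and -0.89 (adjusted p of 0.205 and 0.0839 in limma), and both were called without replicate 3.

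The 6 alcohol and short-chain dehydrogenases, enzymes that exchange hydrogen with a nicotinamide cofactor, had log2 fold changes on both sides of 0, and none was called. The alcohol dehydrogenase TrA1267W had 110.5, 123 and 105 normalized counts in Δrgs4 DD, against 64.4, 59.9 and 50.3 in wild-type DD. The short-chain dehydrogenase TrB1260C had 395, 407 and 363 in Δrgs4 DD, against 197, 188 and 208 in wild-type DD. In these genes the 3 Δrgs4 libraries were close to each other. TrG0370W of the same class had 1242, 1426 and 1967 in Δrgs4 DD, against 3189, 2649 and 2309 in wild-type DD. These 3 were called without replicate 3.

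Of the 4 proteases and peptidases, TrB0248C was called. The D-aminopeptidase TrF0056W had 1216, 1009 and 848 normalized counts in Δrgs4 DD, against 425, 492 and 787 in wild-type DD, and the trypsin-like protease TrE0929C had 157, 160.4 and 116 in Δrgs4 DD, against 347, 280.4 and 211 in wild-type DD. Neither passed the test (adjusted p of 0.156 and 0.173 in limma), and TrF0056W was called without replicate 3 (log2 fold change 1.01, adjusted p = 0.0444). TrE0929C was not. Of the 7 glycoside hydrolases bgl3i was the one called, and 3 had lower values without overlap. Besides bgl3i these were the endo-N-acetyl-β-D-glucosaminidase gene TrF0168W (Endo T, which trims the sugar chains of glycoproteins), with 167, 136 and 158 in Δrgs4 DD, against 345, 244 and 321 in wild-type DD, and the glucanase TrB0225W, with 53.8, 57.4 and 43.3 in Δrgs4 DD, against 144, 87.8 and 142 in wild-type DD. Without replicate 3 bgl3i and TrF0168W were called. The 7 members had log2 fold changes between -1.22 and 0.30, with a median of -0.02.

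Among 6 regulators of transcription and chromatin none was called (median -0.13). The Zn2Cys6 regulator TrF0357C, of a fungal class of zinc cluster proteins that bind DNA, had 416, 355 and 288 normalized counts in Δrgs4 DD, against 172, 195 and 199 in wild-type DD. The myb type regulator TrB0388C had 97.0, 105 and 113 in Δrgs4 DD, against 228, 199 and 169 in wild-type DD. They lay on opposite sides of the wild-type, and both were called without replicate 3. The 6 genes mutated in RutC30 or QM9123, mutant strains of T. reesei, had a median of -0.44, none was called, and 3 had lower values without overlap (TrF0044C, TrF0028C and TrC0885C). Of these TrF0044C and TrF0028C were called without replicate 3.

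**Figure D4:**
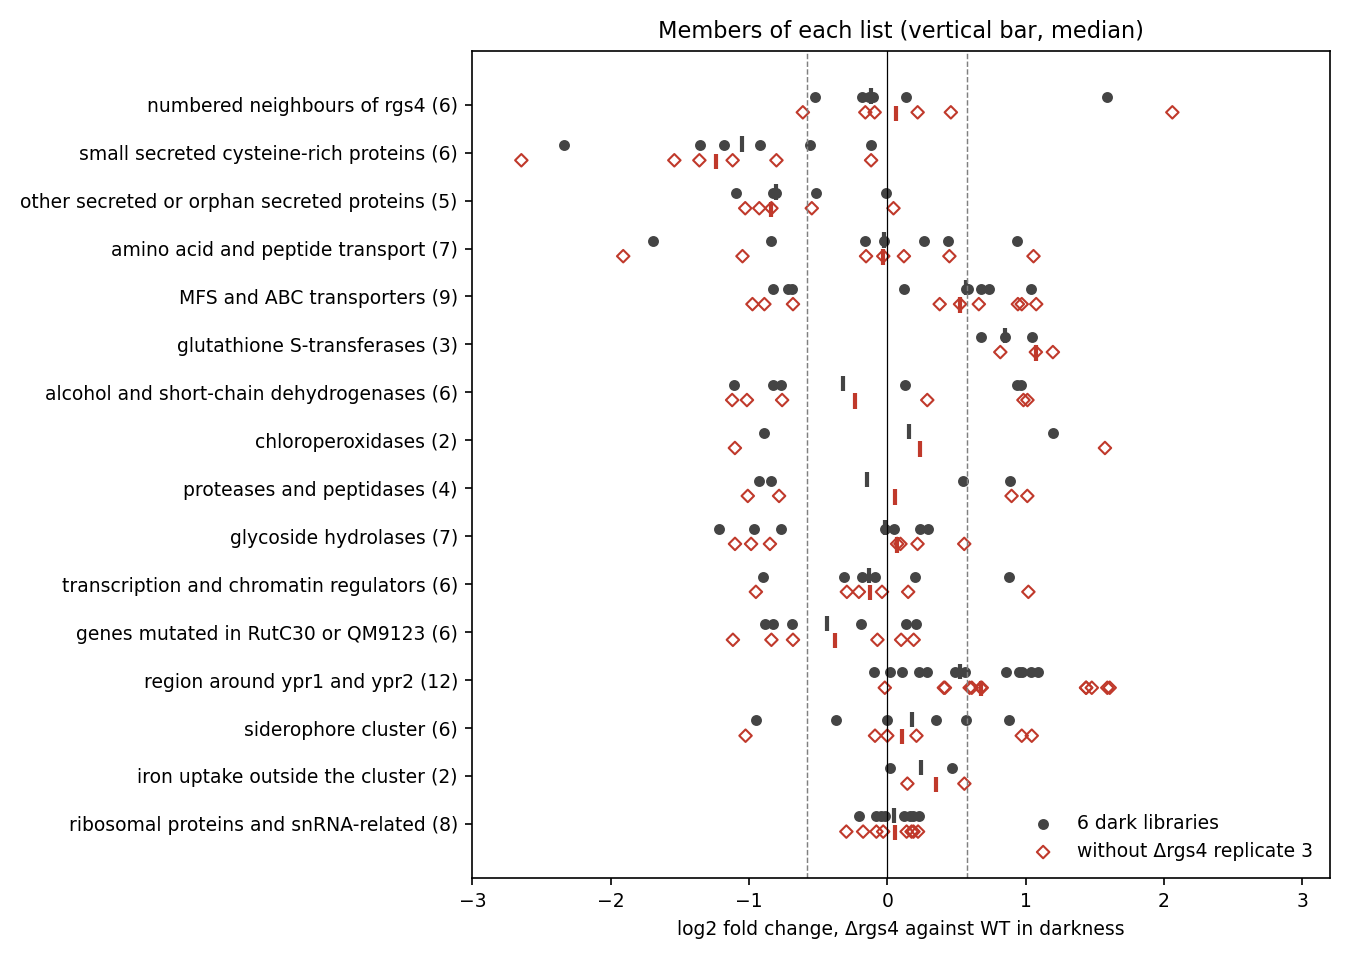
Log2 fold change of Δrgs4 over wild-type in darkness for the tested members of each list (rgs4 left out), with all 6 dark libraries (filled circles) and without Δrgs4 replicate 3 (open diamonds); vertical bars are medians, the dashed lines mark 0.58 in either direction and the number of genes is in brackets. The listed small secreted cysteine-rich proteins lie left of 0 and the listed glutathione S-transferases right of it in both fits, and members of most other lists lie on both sides.

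The genes numbered from TrE0655 to TrE0672 contain ypr1 and ypr2, transcription factors of the cluster for sorbicillin, the yellow pigment of T. reesei. None was called with all libraries, and 5 consecutive ones, TrE0659C to TrE0663W, were without replicate 3. This was the one run of at least 3 consecutive numbers among the 155 higher genes. TrE0660W had 19556, 17390.1 and 6309 normalized counts in Δrgs4 DD, against 3897, 7038 and 8059 in wild-type DD. TrE0661W had 1358, 1132 and 391 in Δrgs4 DD, against 258, 451 and 593 in wild-type DD. Replicates 1 and 2 were thus above the wild-type, and replicate 3 fell inside its range in both genes.

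The pattern was the same for TrE0659C, with 15173, 13179 and 5175 in Δrgs4 DD, against 3469, 5752 and 7129 in wild-type DD. It differed for TrE0662C, with 77172, 66538 and 56296 in Δrgs4 DD, against 48026, 42663 and 44003 in wild-type DD, and for ypr2 (TrE0663W), with 12467, 10445 and 9194 in Δrgs4 DD, against 7832, 7072 and 7769 in wild-type DD. In these genes replicate 3 was above every wild-type library. The values of ypr1 (TrE0665C) were 277, 204 and 70.0 in Δrgs4 DD, against 48.3, 122 and 109 in wild-type DD, with overlap. Over the 12 tested genes the median difference from the wild-type mean was 0.76, 0.60 and -0.05 on the log2 scale for replicates 1, 2 and 3.

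**Figure D5:**
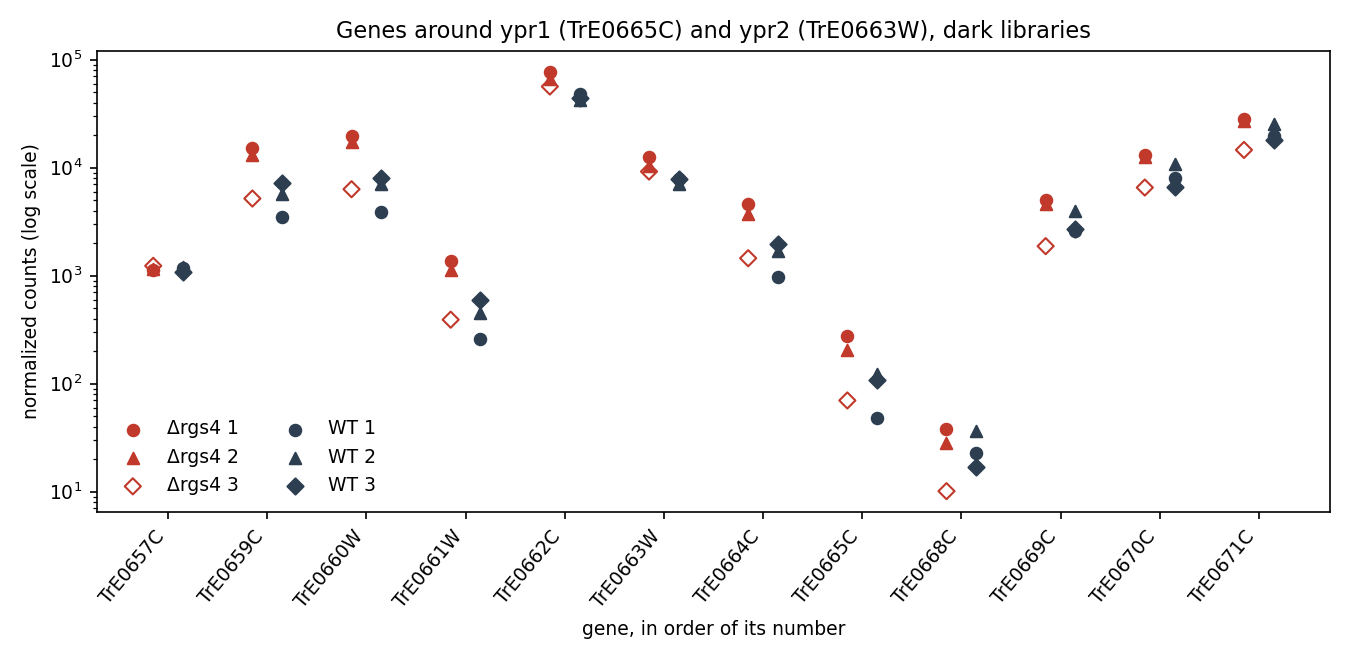
Normalized counts (log axis) of the 12 tested genes numbered around ypr1 and ypr2 in the dark libraries (red, Δrgs4, with replicate 3 as open diamonds; dark blue, wild-type). Replicates 1 and 2 of Δrgs4 lie above all wild-type libraries for TrE0659C to TrE0665C and for most of the genes numbered after them. Among these genes replicate 3 does so for TrE0662C and TrE0663W.

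On the lower side the one run of 3 numbers, chosen after its values were seen, was TrG0231W to TrG0233C, all without annotation in the sources used here. TrG0232W had 2279, 2939 and 4862 normalized counts in Δrgs4 DD, against 5539.9, 4853 and 6895 in wild-type DD. TrG0231W and TrG0233C gave log2 fold changes of -0.47 and -0.59, and none of the 3 passed the test with all libraries (adjusted p between 0.148 and 0.238, limma).

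None of the members of 3 lists that the authors chose for light was called in darkness. The 8 ribosomal protein and snRNA-related genes had log2 fold changes between -0.20 and 0.23 (median 0.05), and 0 were called with or without replicate 3. The 2 genes of iron uptake outside the siderophore cluster had 0.02 and 0.47, and the gene with 0.47 did not overlap between the strains. The 6 genes of the siderophore cluster, which makes and imports iron chelators, had at most 31.8 normalized counts on average in wild-type DD. Their log2 fold changes lay between -0.95 and 0.88, and both ends rest on few reads. TrE0012W had 1, 5 and 4 reads in Δrgs4 DD, against 11, 6 and 7 in wild-type DD. TrE0014C had 2, 2 and 1 reads in Δrgs4 DD, against 0, 0 and 0 in wild-type DD. TrE0015W had no read in any dark library. TrE0014C and TrE0015W were among the tested genes through their reads in LL. Changes of the cluster were therefore hardly detectable at this depth in darkness.

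Replicate 3 itself had 130 genes over 2-fold below all 5 other dark libraries, and 11 over 2-fold above. The number above was not particular to it, as Δrgs4 DD replicate 1 also had 11 and wild-type DD replicate 3 had 18. TrD0546C had 24955, 19138 and 1297 normalized counts in Δrgs4 DD, against 24128, 27084 and 27618 in wild-type DD. TrC1508W had 3415, 1652 and 27.6 in Δrgs4 DD, against 1485, 3217 and 1924 in wild-type DD. These genes, chosen for this deviation, show how far a single library departed from its strain. Of the 130 genes, 67 (51.5%) were over 4 times lower in LL than in DD in the wild-type, as were 8.68% of all genes considered. Another 15 of the 130 went the other way and were over 4 times higher in LL. The share of all genes on that side was not counted. In TrA0376C replicate 3 was the high one, with 78.8, 78.5 and 532 in Δrgs4 DD, against 43.5, 50.3 and 134 in wild-type DD. Whether light exposure had a part in this was not tested.

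Light was set beside darkness with the other 6 libraries, none of which entered the group means of darkness. The spread of each gene was estimated from all 12 libraries, so that the calls in LL and in darkness are not independent. Of the 7 genes called in darkness besides rgs4, 0 were called in LL, with log2 fold changes between -0.72 and 0.25 there. In LL limma called decreases for 150 genes (1.69%) and increases for 38 (0.427%). Of the 284 genes called in darkness without replicate 3, other than rgs4, 16 were among the 187 called in LL (5.63% and 8.56%). The directions did not always match. Of the 149 genes other than rgs4 that were lower in LL, 10 were called as lower and 3 as higher in darkness. Of the 38 genes higher in LL, 2 were called as higher and 1 as lower in darkness. The difference of the effects itself (LL minus DD) passed an adjusted p of 0.05 (limma, 1.03% of the tested genes) for 4 of the 7 genes. These were TrA0299W, TrA1397W, TrB0248C and TrB1799C. The 7 genes were chosen for their change in darkness, which enters this difference. The share of all tested genes is therefore no fair measure beside them. bgl3i had 2815, 2199 and 2382 normalized counts in Δrgs4 LL, against 2331, 2011 and 2274 in wild-type LL.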

How the data were processed

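RNA was sequenced from 12 cultures after ribosomal RNA depletion. Per the paper's methods the authors trimmed reads with bbduk, aligned them with HISAT2 2.2.1, counted them per gene with featureCounts and tested with DESeq2. Whether strand was used in counting is not given in the sources, and overlapping and near-identical genes are uncertain. The authors deposited values for 10879 genes on a log2-like scale, made with the variance stabilizing transformation (VST) in DESeq2. The lowest value, 6.74, stands for 0 reads. Inverting the transformation gave normalized counts, and whole reads in all values within 0.01. A deposited table of raw counts has 12 columns that no label pairs with a sample and was not used. The authors' table of differentially regulated genes was read for names, descriptions and which genes it lists, and its fold changes were not used. The lists of genes consist mostly of genes it holds.

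limma 3.58.1 in R 4.3.3 was fitted to log2(normalized counts + 2) of all 12 libraries, with 4 group means and the trend option for the variance. The 8895 genes that reached 10 reads in 3 or more libraries were tested. Members of each list were counted and their median given, without a test. Genes named are rgs4 and its 3 numbered neighbours on each side, all called genes, annotated members of the lists, per direction the 10 lowest unadjusted p without overlap and the 5 highest folds called without Δrgs4 DD replicate 3 (both with a mean of at least 50 normalized counts in the dark libraries). The genes and lists were chosen with earlier results of these data known. Alternatives were other scalings, pseudocounts and filters, the values as deposited, the dark libraries alone, a replicate block, library weights, limma-voom, adjusted p alone and each library left out. Fits of the dark libraries and of limma-voom without replicate 3 were added after the data were seen. The steps were run on simulated reads with known changes, in which no library lay apart. That run therefore does not bear on the effect of replicate 3. Python 3.11.15 with pandas 2.3.3 and matplotlib 3.10.9 read and plotted the values.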

Additional observations from a re-analysis of the deposited data

Results flagged for a closer look

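In 10 of the genes named singly above the effect of the deletion differed between light and darkness. The adjusted p of the difference was under 0.05 (limma with Benjamini-Hochberg adjustment), as for 92 of the 8895 tested genes (1.03%). Most of the 10 were named for their change in darkness, which enters the difference, so that this share is no fair measure beside them. Members of the lists not named singly were left out, also where they passed. Among these were ribosomal protein genes, with an adjusted p down to 0.00247 (limma). The difference, LL minus DD on the log2 scale, was 0.92 for TrA0299W (bgl3i), 1.12 for TrA1397W, 0.86 for TrB0248C and 1.42 for TrB1799C, which were called as down-regulated in darkness and not in LL. It was 2.51 for the glucanase TrB0225W, with log2 fold changes of 1.29 in LL and -1.22 in DD. The decrease of TrB0225W in darkness was not called (adjusted p = 0.196, limma). Its increase in LL was called (adjusted p = 0.0483, limma), at low counts that overlapped between the strains. These were 50.6, 47.9 and 26.6 normalized counts in Δrgs4 LL, against 13.4, 9.31 and 27.5 in wild-type LL. Negative differences were found for the glutathione S-transferase TrB1934C (-1.62), TrB0981C (-0.47), TrE0532W (-0.76), TrB1137C (-1.13) and TrE0662C (-1.07), all with higher values in Δrgs4 in darkness.

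TrB1137C had 453, 379.6 and 479 normalized counts in Δrgs4 LL, against 653, 699 and 631 in wild-type LL. Its effects were -0.60 in LL and 0.53 in DD, and the adjusted p of 0.0126 was the lowest of the 10 (limma). TrE0662C had 55.2, 60.4 and 74.3 normalized counts in Δrgs4 LL, against 103, 77.0 and 93.9 in wild-type LL, a level far below that in darkness. Without Δrgs4 DD replicate 3 all 10 kept an adjusted p under 0.05 (up to 0.0424). Over all alternatives the adjusted p ranged up to 0.187.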

How the results depend on the processing

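The numbers of calls depended on the treatment of the libraries. Decreases in darkness numbered 8 as reported, 2 with upper-quartile factors or total reads as scaling, 5 with a pseudocount of 0.5, 4 with no filter beyond 1 read, 27 with the values as deposited, 1 with only the 6 dark libraries, 30 with limma-voom and 177 with library weights. Increases numbered 0 as reported, 2 with the values as deposited, 9 with limma-voom, 199 with library weights and 3 at adjusted p alone. Leaving out 1 library gave between 1 and 130 decreases and between 0 and 155 increases, and the high ends belong to the fit without Δrgs4 DD replicate 3, which had a library weight of 0.229. Without it, the dark libraries alone gave 125 decreases and 57 increases, and limma-voom 181 and 279 (both chosen after seeing the data). The cause was not tested.

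With the replicate number as a block 3 decreases and 0 increases were called. The correlations of the deviations of same-numbered samples were -0.41, 0.24 and -0.16 in DD, and not every sample went with its own number, so that the numbers were not taken to pair the samples.

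Of 76 named genes, 72 kept their sign in every alternative. TrG0499W turned positive with library weights (0.55), without replicate 3 in the dark libraries alone (0.46) and in limma-voom (0.48), and ranged between -0.62 and 0.46 with 1 library left out. TrG0493C ranged between -0.28 and 0.084 and TrG0498C between -0.012 and 0.27, both turning without wild-type DD replicate 1. TrC1508W, named for its deviation in replicate 3, ranged between -3.24 and 0.18, and without replicate 3 it had 0.18 in the dark libraries alone and 0.19 in limma-voom.

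List medians moved by more than the spread of the Δrgs4 libraries in these cases. With the values as deposited, a compressed scale, they were -0.053 for rgs4 and its neighbours, -0.65 for small secreted cysteine-rich proteins, -0.59 for other secreted proteins, 0.085 for MFS and ABC transporters, -0.11 for dehydrogenases, -0.056 for regulators and -0.25 for genes mutated in RutC30 or QM9123. With library weights they were -0.089 for regulators, -0.35 for the mutated genes and 0.0026 for ribosomal genes. With at least 10 reads in every dark library, which leaves fewer genes, they were -0.088 for regulators and -0.37 for the siderophore cluster. The latter is the value of a single gene, as no other member of the cluster was left. Without replicate 3 the mutated genes had -0.38 in both added fits. With 1 library left out the medians ranged between -0.17 and -0.069 for regulators, -0.51 and -0.31 for the mutated genes, and -0.0085 and 0.11 for ribosomal genes.

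With 3 libraries a strain and 1 of them apart, changes under about the spread between replicates were not detectable in darkness. All replicates of Δrgs4 are of 1 strain, and the gene numbers stand in for positions, as no genome of the build was used here.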
